A study of Mus musculus with 9 samples.

Results

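The aminoacyl-tRNA synthetases are described here in primary mouse microglia before and after they were fed apoptotic cells. The members were taken by gene symbol: 20 genes for the cytosolic enzymes and 15 for enzymes that work only in mitochondria, 35 of the 34650 gene names on the array. They were read by 44 of its 55681 probes, 27 members by 1 probe, 7 members by 2 and Farsa by 3. Genes whose probe cleared the background on 1 or more of the 9 arrays were tested, 34 of the 35 members and 24102 gene names in all. Nars2, the mitochondrial asparagine enzyme, did not clear it on any array. All 34 tested members were well above background on every array of every group, so none of them entered through 1 group alone.

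RNA was measured on one-color Agilent arrays in 3 groups of 3 arrays, each array being 1 of 3 independent experiments. The microglia came from pooled brains of fms-EGFP pups at postnatal day 0 to 1, in which the fms promoter drives a green reporter in myeloid cells, and all 3 groups, controls included, carried it. All had grown for about 14 days in 10% serum with 5 ng/ml GM-CSF. The control was collected at time 0, before feeding. Ph3h and Ph24h were collected 3 h and 24 h after addition of about 1 human SH-SY5Y neuroblastoma cell per microglial cell, made apoptotic with 3 µM staurosporine for 4 h and labeled with CM-DiI. There was no unfed culture at 3 h or 24 h, so feeding and time in culture cannot be told apart.

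An aminoacyl-tRNA synthetase joins 1 amino acid to the tRNAs that carry its codons, and every peptide bond made on a ribosome uses a tRNA charged in this way. Cytosolic ribosomes and mitochondrial ribosomes draw on separate tRNA pools, so most amino acids have a cytosolic and a mitochondrial enzyme, both encoded in the nucleus. The enzymes for glycine and lysine, Gars and Kars, each serve both compartments from a single gene. By the fold of the catalytic domain the enzymes form class I and class II, and several cytosolic ones sit together in the multisynthetase complex. Many of the cytosolic genes are known targets of ATF4, the transcription factor of the amino acid and integrated stress responses.

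Levels are given as relative intensity, the fluorescence of a probe divided by the 75th percentile of its own array. Changes are differences of its log2 with their standard error (SE). A gene was called higher or lower at a Benjamini-Hochberg adjusted p below 0.05 from limma, adjusted over all 24102 genes. Levels of different probes cannot be set against each other on an array, so only changes are compared between genes. Since RNA of a whole culture was measured, fewer cells of a type and less RNA per cell cannot be told apart.

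The cytosolic enzymes were mostly lower after feeding, and more of them at 24 h than at 3 h. At 3 h, 12 of 20 were called lower, 1 higher (Hars) and 7 were not called, with a median log2 change of -0.55. Over all genes tested, 53.8% were called, 26.0% lower and 27.9% higher, and the median change was 0.07. At 24 h, 17 of the 20 were called lower, 1 higher (again Hars) and 2 were not called (Qars and Yars), with a median of -0.84. Over all genes 63.1% were called, 33.2% lower and 29.9% higher, with a median of 0.01. Of the cytosolic members, 17 lay below every control array on all 3 Ph24h arrays, as did 36.5% of all genes. At 3 h this held for 14 members and for 30.5% of all genes.

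The mitochondrial enzymes had smaller median changes, with calls in both directions. At 3 h, 6 of 14 were called lower (Aars2, Ears2, Hars2, Pars2, Tars2 and Yars2) and 2 higher (Cars2 and Rars2), with a median log2 change of -0.36. The 8 called are a share close to the 53.8% of all genes called at that time. At 24 h, 9 were called lower and 1 higher (Rars2), with a median of -0.46, against 33.2% of all genes lower and 29.9% higher. Hars2 was among those no longer called, and Fars2, Lars2, Sars2 and Wars2 were called lower only at this time. Averaged within each array, the cytosolic set differed from the control mean by -0.43, -0.41 and -0.39 on the 3 Ph3h arrays and by -0.77, -0.82 and -0.90 on the 3 Ph24h arrays. The mitochondrial set differed by -0.37, -0.24 and -0.32, and by -0.43, -0.31 and -0.41. The gap between the sets does not change when an array is scaled by 1 constant, though quantile normalization moved its 3 h mean from -0.10 to -0.14, and to -0.19 when normexp was added. Cytosolic minus mitochondrial came to -0.05, -0.17 and -0.07 at 3 h and to -0.34, -0.50 and -0.49 at 24 h, while the 3 control arrays lay between -0.02 and 0.01. All 6 fed arrays thus had the lower cytosolic average, and the Ph24h arrays were further from the controls than the Ph3h arrays. No p is given for an average over members.

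The settings of the array scale bear on single directions. Scaling each array to its median in place of the 75th percentile moved the median of all genes from 0.07 to -0.18 at 3 h and from 0.01 to -0.50 at 24 h, and the share of called genes that were higher from 51.8% to 33.67% and from 47.43% to 23.86%. Under it the cytosolic medians were -0.80 and -1.34 and the mitochondrial medians -0.60 and -0.96. Hars and Rars2 at 24 h were then not called (log2 change 0.31, adjusted p = 0.0596, and 0.06, adjusted p = 0.537, limma). With probes near background kept in, the median of all genes was 0.34 and 0.46, and 66.9% and 65.03% of called genes were higher. Under quantile normalization those shares were 42.88% and 40.15%.

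**Figure D1:**
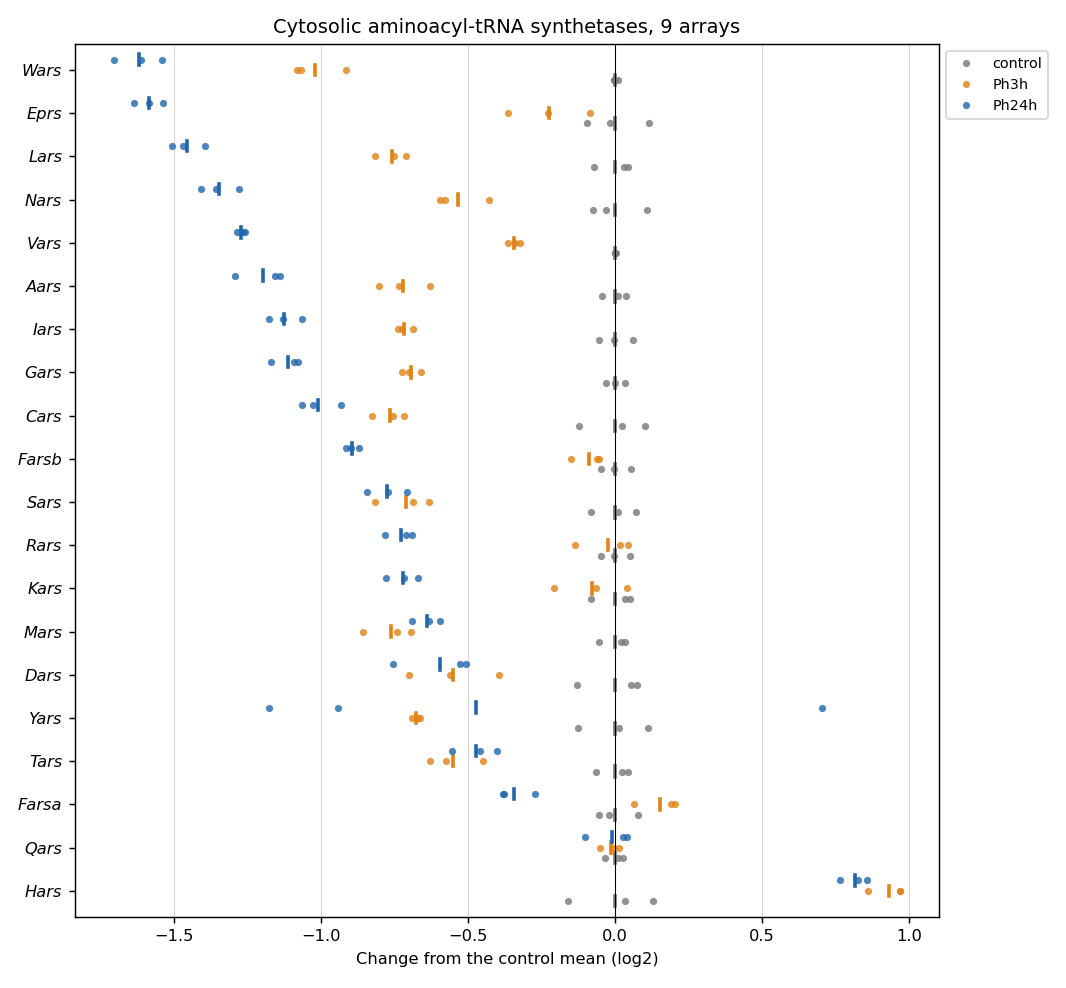
Change in log2 relative intensity from the control mean for the 20 cytosolic synthetases, 1 point per array for control, Ph3h and Ph24h (n = 3 arrays each) with a vertical mark at each group mean. At 24 h 17 members lay below all control arrays, Hars lay above them, and 1 Ph24h point of Yars stood apart from the other two.

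Wars, the tryptophan enzyme and a gene known to respond to interferon, had the largest cytosolic change at both times. On its brighter probe the relative intensity was 78.4, 77.5 and 77.6 in the controls, 41.3, 36.8 and 37.1 at 3 h, and 25.5, 26.7 and 23.9 at 24 h. The 3 groups did not overlap, with each later group below the one before. Wars fell by 1.02 on the log2 scale at 3 h (SE 0.0688, adjusted p = 1.8e-05, limma) and by 1.62 at 24 h (adjusted p = 1.46e-06), a 3.07-fold lower level. A second probe for Wars gave another picture. Its relative intensity was 3.296, 3.095 and 3.096 in the controls, 2.52, 2.58 and 2.70 at 3 h, and 4.66, 4.72 and 4.60 at 24 h, so that the Ph24h arrays were the highest rather than the lowest. This probe changed by -0.28 at 3 h and by 0.56 at 24 h (limma, with an adjusted p of 7.81e-05 for the latter). The direction for Wars at 24 h therefore holds for the probe read, not for the gene as a whole. The last 30 of the 60 bases of each probe are shown because they place the probes apart on the transcript. The brighter probe, at transcript position 2766, holds the polyadenylation signal AATAAA, in capitals, and the second probe lies upstream at position 1036.
Wars, brighter probe: taggaaaaaacAATAAActttgttgagctc
Wars, second probe: atccgtacttcagaatgacaagggacgtgg

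Eprs, which charges both glutamate and proline within the multisynthetase complex, changed mostly after 3 h. Its relative intensity was 5.35, 4.61 and 4.87 in the controls, 3.83, 4.21 and 4.65 at 3 h, and 1.64, 1.70 and 1.59 at 24 h. The 3 h and control arrays overlapped, and the Ph24h arrays were below all others. The log2 change was -0.23 at 3 h (SE 0.0897, adjusted p = 0.0675, limma) and -1.59 at 24 h (adjusted p = 5.86e-06), a 3.01-fold lower level. The 3 h change was called lower under quantile normalization (-0.24, adjusted p = 0.039, limma) and median scaling (-0.47, adjusted p = 0.0138).

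Lars, the leucine enzyme, also known as a leucine sensor for mTORC1, fell at both times. Relative intensity was 20.4, 20.6 and 19.0 in the controls, 11.8, 12.2 and 11.3 at 3 h, and 7.20, 7.58 and 7.01 at 24 h, with no overlap between groups. The log2 changes were -0.76 and -1.46 (SE 0.0615, adjusted p = 4.39e-05 and 1.4e-06, limma). Nars, the asparagine enzyme, followed the same order, from 26.9, 23.7 and 24.4 through 16.5, 16.7 and 18.5 to 9.73, 10.3 and 9.39. Its changes were -0.54 and -1.35 (SE 0.0768, adjusted p = 0.00078 and 6.03e-06, limma).

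Kars and Gars, the enzymes that serve both compartments, differed in timing. Kars, for lysine, stood at 23.5, 21.4 and 23.2 in the controls, 21.7, 19.6 and 23.3 at 3 h, and 13.2, 14.3 and 13.8 at 24 h. Only the Ph24h arrays were apart from the controls, with a log2 change of -0.08 at 3 h (SE 0.0792, adjusted p = 0.446, limma) and -0.72 at 24 h (adjusted p = 0.00015). This depended on the scaling, since under median scaling Kars was called lower at 3 h as well (-0.32, adjusted p = 0.0275, limma). Gars, for glycine, stood at 194.9, 198.8 and 203.6 in the controls, 122.3, 125.9 and 120.3 at 3 h, and 94.1, 93.4 and 88.5 at 24 h. All 3 groups were apart, with changes of -0.70 and -1.11 (SE 0.052, adjusted p = 2.99e-05 and 2.28e-06, limma).

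Cars and Mars made most of their change by 3 h. Cars, the cysteine enzyme, read 43.9, 48.6 and 51.3 in the controls, 29.1, 28.4 and 26.9 at 3 h, and 23.5, 25.04 and 22.9 at 24 h. It changed by -0.77 and -1.01 (SE 0.0754, adjusted p = 0.000114 and 2.2e-05, limma). Mars, the methionine enzyme, read 6.66, 6.32 and 6.72 in the controls, 3.62, 3.92 and 4.06 at 3 h, and 4.07, 4.34 and 4.23 at 24 h. Both fed groups lay below the controls, and the change was -0.76 at 3 h and -0.64 at 24 h (SE 0.0634, adjusted p = 5.04e-05 and 8.98e-05, limma).

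Hars, the histidine enzyme, was the only cytosolic member called higher on the brightest probe of each gene. Its relative intensity was 4.20, 3.93 and 3.43 in the controls, 6.98, 7.51 and 7.51 at 3 h, and 6.81, 6.96 and 6.53 at 24 h. Every fed array lay above every control array. The log2 changes were 0.93 and 0.82 (SE 0.0837, adjusted p = 7.46e-05 and 0.000107, limma), 1.91-fold and 1.76-fold.

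Among the remaining cytosolic members, Aars, Dars, Iars, Sars, Tars and Vars, for alanine, aspartate, isoleucine, serine, threonine and valine, were called lower at both times. Their changes ran from -0.34 for Vars to -0.72 for Aars at 3 h, and from -0.47 for Tars to -1.27 for Vars at 24 h. Farsa and Farsb, which form the subunits of the phenylalanine enzyme, and Rars, for arginine, were called lower only at 24 h, with changes of -0.34, -0.90 and -0.73. Under median scaling Farsb and Rars were called lower at 3 h as well (-0.33 and -0.27, adjusted p = 0.0111 and 0.0431, limma). The second brightest Farsa probe was called higher at 3 h (0.31, adjusted p = 0.0021, limma) and changed by -0.32 at 24 h. Qars, the glutamine enzyme, had 47.6, 49.2 and 49.8 in the controls, 48.7, 47.2 and 49.2 at 3 h, and 49.8, 50.2 and 45.5 at 24 h. Its groups overlapped at both times, with changes of -0.01 and -0.01 (SE 0.0585, adjusted p = 0.854 and 0.869, limma). This depended on the scaling. Qars was called lower at 3 h under quantile normalization (-0.15, adjusted p = 0.03, limma). Under median scaling it was called lower at both times (-0.26 and -0.52, adjusted p = 0.0401 and 0.00105). For Yars, the tyrosine enzyme, Ph24h replicate 1 decided the result. It read 0.319, 0.342 and 0.290 in the controls, 0.196, 0.198 and 0.199 at 3 h, and 0.515, 0.164 and 0.140 at 24 h. With all arrays the changes were -0.68 and -0.47 (SE 0.444, adjusted p = 0.239 and 0.382, limma). Without Ph24h replicate 1 they were -0.68 and -1.06 (adjusted p = 0.0011 and 0.00024), and Yars would be called lower at both times.

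By class, the cytosolic class I enzymes had 6 of 9 called lower at 3 h and 7 at 24 h, with medians of -0.72 and -1.01. The cytosolic class II enzymes, the phenylalanine subunits counted singly, had 6 of 10 lower at 3 h and 9 at 24 h, with medians of -0.54 and -0.75. Eprs, which holds a domain of each class, was counted in neither. Of the 8 synthetases of the multisynthetase complex, 4 were called lower at 3 h and 7 at 24 h, with medians of -0.39 and -0.73. Of the 12 cytosolic members outside it, 8 and 10 were called lower, with medians of -0.61 and -0.95. Over all genes 26.0% and 33.2% were called lower.

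**Figure D2:**
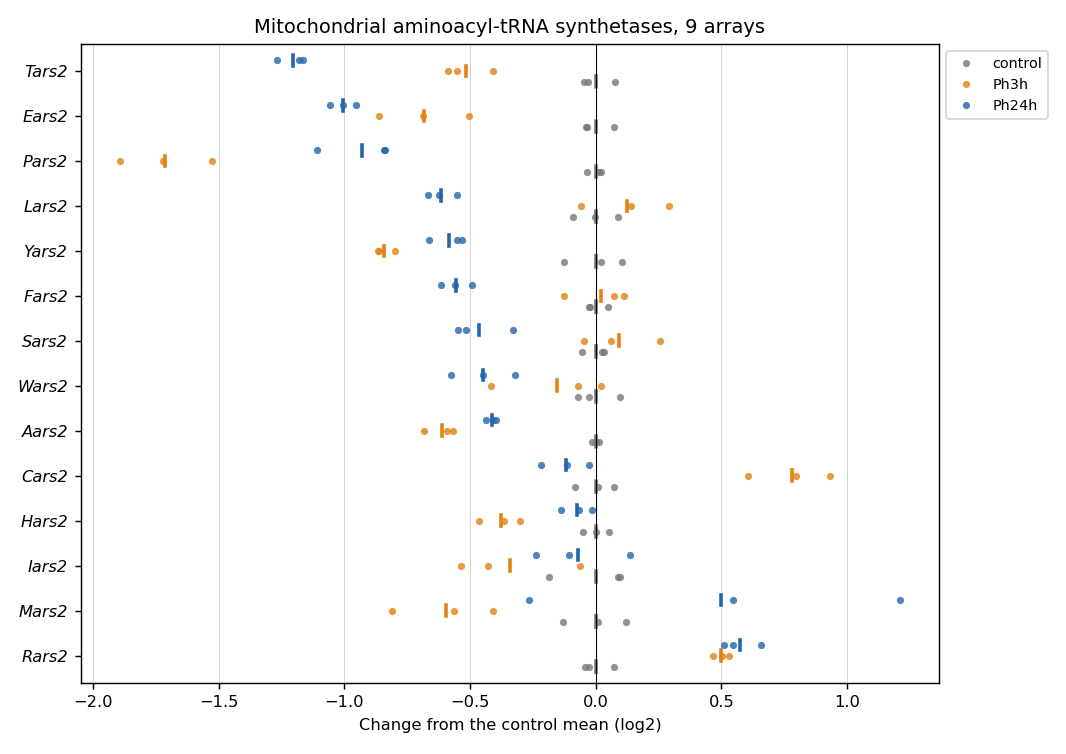
Change in log2 relative intensity from the control mean for the 14 tested mitochondrial synthetases, 1 point per array for control, Ph3h and Ph24h (n = 3 arrays each) with a vertical mark at each group mean. Pars2 was lowest at 3 h and partly back at 24 h, Cars2 was above control only at 3 h, and Rars2 was above control at both times.

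Pars2, the mitochondrial proline enzyme, had the largest change of any member at 3 h. Relative intensity was 4.27, 4.29 and 4.12 in the controls, 1.47, 1.14 and 1.28 at 3 h, and 2.36, 2.36 and 1.96 at 24 h. The Ph24h arrays lay between the others without overlap. Pars2 fell by 1.71 on the log2 scale at 3 h, 3.28-fold (SE 0.112, adjusted p = 1.6e-05, limma), and by 0.93 at 24 h (adjusted p = 0.000251). The second Pars2 probe was well above background on 3 control arrays but on 1 of 3 arrays in each fed group, so its values there are limited by the floor and are not set against these. Yars2, for tyrosine, had a similar order, from 5.07, 4.78 and 4.32 to 2.59, 2.58 and 2.71 at 3 h and 3.21, 3.26 and 2.98 at 24 h. Its changes were -0.84 and -0.58 (SE 0.0747, adjusted p = 6.96e-05 and 0.000347, limma).

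Tars2 and Ears2, for threonine and glutamate, fell further with time. Tars2 read 22.8, 24.6 and 22.6 in the controls, 15.5, 17.6 and 15.9 at 3 h, and 9.68, 10.3 and 10.4 at 24 h. Its changes were -0.52 and -1.20 (SE 0.07, adjusted p = 0.00059 and 6.73e-06, limma). Its second probe gave -0.17 at 3 h (adjusted p = 0.154, not called) and -0.38 at 24 h. Ears2 read 1.43, 1.32 and 1.33 in the controls, 0.841, 0.956 and 0.746 at 3 h, and 0.700, 0.675 and 0.652 at 24 h. The changes were -0.68 and -1.01 (SE 0.0949, adjusted p = 0.000655 and 6.94e-05, limma). Lars2, for leucine, was called only at 24 h. It read 2.46, 2.31 and 2.18 in the controls, 2.22, 2.55 and 2.83 at 3 h, and 1.46, 1.501 and 1.58 at 24 h, so that the control and Ph3h arrays overlapped and the Ph24h arrays lay below both. Its changes were 0.12 and -0.62 (SE 0.098, adjusted p = 0.325 and 0.00107, limma).

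Cars2 and Rars2 went the other way. Cars2, for cysteine, read 1.11, 1.16 and 1.04 in the controls, 1.68, 1.91 and 2.11 at 3 h, and 1.02, 1.08 and 0.948 at 24 h. The Ph3h arrays were above all others and the Ph24h arrays overlapped the controls. The changes were 0.78 (SE 0.0978, adjusted p = 4e-04, limma) and -0.12 (adjusted p = 0.321). On its second probe the 3 h change was 0.22 and was not called (adjusted p = 0.158). At 24 h that probe was called lower (-0.34, adjusted p = 0.0344, limma). Under median scaling the brighter Cars2 probe was called lower at 24 h as well (-0.63, adjusted p = 0.00334). Rars2, for arginine, read 9.66, 10.4 and 9.56 in the controls, 14.2, 13.6 and 14.0 at 3 h, and 14.1, 15.6 and 14.4 at 24 h. Both fed groups were above the controls, with changes of 0.50 and 0.57 (SE 0.0622, adjusted p = 0.000382 and 0.000143, limma).

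Hars2, for histidine, was lower at 3 h, and at 24 h its arrays overlapped the controls. It read 5.46, 5.66 and 5.87 in the controls, 4.10, 4.59 and 4.39 at 3 h, and 5.40, 5.13 and 5.59 at 24 h, with changes of -0.38 (SE 0.0656, adjusted p = 0.0021, limma) and -0.07 (adjusted p = 0.352). Under median scaling Hars2 was called lower at 24 h too (-0.58, adjusted p = 0.000279, limma). Its 24 h against 3 h difference was then not called (0.04, adjusted p = 0.729). Aars2, for alanine, was 3.18, 3.16 and 3.13 in the controls, 1.97, 2.13 and 2.09 at 3 h, and 2.33, 2.38 and 2.40 at 24 h. Its changes were -0.61 and -0.41 (SE 0.0517, adjusted p = 5.44e-05 and 0.000304, limma). Fars2 and Sars2, for phenylalanine and serine, were called lower only at 24 h, with changes of -0.56 and -0.46. Wars2, for tryptophan, was also called lower only at 24 h, at -0.45 (SE 0.126, adjusted p = 0.0164, limma), and its second probe gave 0.00. Without control replicate 3 or Ph24h replicate 2 the Wars2 call was lost (adjusted p = 0.0535 and 0.0532). Under median scaling Wars2 was called lower at 3 h as well (-0.40, adjusted p = 0.0185, limma). Iars2, for isoleucine, was not called at either time, with changes of -0.34 and -0.07 (SE 0.156, adjusted p = 0.104 and 0.726, limma). Its second probe was called lower at both times, at -0.30 and -0.26 (adjusted p = 0.0243 and 0.0382), and without Ph3h replicate 2 the brighter probe was called lower at 3 h (-0.48, adjusted p = 0.03). Under median scaling the brighter Iars2 probe was called lower at both times (-0.59 and -0.58, adjusted p = 0.0308 and 0.0259, limma). Mars2, for methionine, read 0.156, 0.171 and 0.185 in the controls, 0.0969, 0.128 and 0.115 at 3 h, and 0.141, 0.393 and 0.248 at 24 h, and was called at neither time (adjusted p = 0.175 and 0.231, limma). Without Ph24h replicate 1 it would be called lower at 3 h (adjusted p = 0.0391) and higher at 24 h (log2 change 0.88, adjusted p = 0.0128).

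Ph24h was also compared with Ph3h directly. Of the cytosolic members 13 were called lower and 0 higher, with 7 not called, and the median log2 change was -0.45. Over all genes 44.4% were called, 24.0% lower and 20.4% higher, and the median was 0.04. On 14 cytosolic members all Ph24h arrays lay below all Ph3h arrays, as on 28.2% of all genes, with 56.9% of genes not overlapping in either direction. The count of 0 is limma's. At an unadjusted p below 0.05 it was 0 as well, and it was 2 (Mars and Tars) under quantile normalization. Eprs had the largest difference at -1.36 (SE 0.0897, adjusted p = 2.01e-05, limma), then Vars at -0.93 and Nars and Farsb at -0.81. The mitochondrial members split, with 6 called lower and 5 higher and a median of -0.11. Cars2 (-0.90), Lars2 (-0.74), Tars2 (-0.69), Fars2, Sars2 and Ears2 were lower at 24 h than at 3 h. Mars2, Pars2 (0.78), Hars2 (0.30), Yars2 (0.26) and Aars2 (0.20) were higher, and 4 of these, all but Mars2, were called below control at 3 h. Under median scaling, Pars2 alone of the 5 kept its call. Without Ph3h replicate 1, Ph3h replicate 2 or Ph24h replicate 2 the number called higher was 3.

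For 11 amino acids, both the cytosolic and the mitochondrial enzyme were tested, and their changes were set against each other within each array. At 24 h the cytosolic enzyme had changed more toward lower values in 8 of 11 pairs, with all 3 Ph24h arrays below all 3 controls. It had changed toward higher values in 2 pairs, and 1 pair (Yars and Yars2) overlapped. At 3 h the numbers were 6 lower, 2 higher and 3 overlapping. For single genes, a different measure, arrays did not overlap in either direction for 71.3% of all genes at 24 h and 65.7% at 3 h. No such share was computed for differences between 2 genes. The median difference over the pairs was -0.38 at 3 h and -0.84 at 24 h.

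On the brighter probes the arginine pair differed most at 24 h. Rars minus Rars2 was 0.03, -0.02 and 0.00 in the controls, -0.67, -0.42 and -0.49 at 3 h, and -1.30, -1.35 and -1.26 at 24 h, all relative to the control mean. On those probes the cysteine pair differed most at 3 h, where Cars minus Cars2 was -1.33, -1.55 and -1.76, against -0.92, -0.91 and -0.85 at 24 h. With the second Cars2 probe its mean was -0.98 at 3 h, nearer to 0 than that of the histidine pair. The histidine pair, whose genes are neighbors that share a promoter region, ran the opposite way, Hars minus Hars2 being 1.32, 1.27 and 1.33 at 3 h and 0.89, 1.00 and 0.78 at 24 h. For the threonine pair Tars minus Tars2 was 0.14, -0.22 and -0.03 at 3 h, overlapping the controls, and 0.81, 0.78 and 0.61 at 24 h. With the second Tars2 probe its means were -0.39 and -0.10, so the direction at 24 h holds for the brighter probe alone. The tryptophan pair gave -1.16, -0.97 and -1.39 at 24 h on the brighter probes, a mean of -1.17, which was 1.01 with the second Wars probe and -1.62 with the second Wars2 probe. For the methionine pair the Ph24h arrays were spread widely, at -0.42, -1.81 and -1.18.

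**Figure D3:**
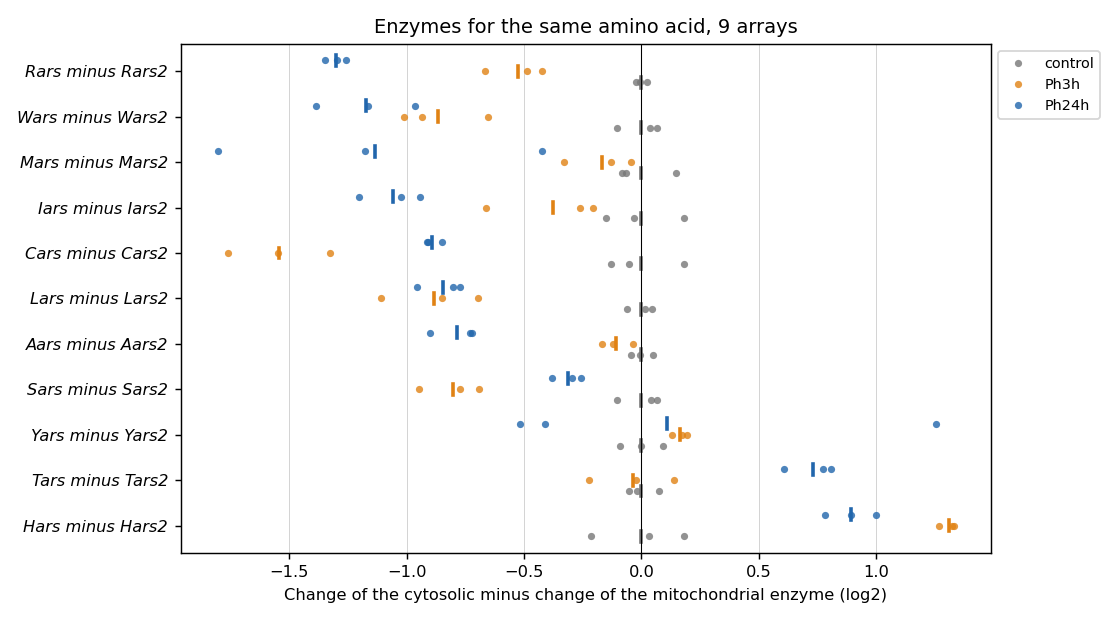
Cytosolic minus mitochondrial change in log2 relative intensity for the 11 amino acids with both enzymes tested, relative to the control mean, 1 point per array (n = 3 per group) with a vertical mark at each group mean. At 24 h 8 pairs lay below all control arrays, the threonine and histidine pairs above them, and the tyrosine pair overlapped.

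Probes for different places in 1 gene did not always move alike. In 7 members at least 2 probes passed the background filter. The second Pars2 probe and 1 Farsa probe were not well above background on every array, and the other 5 members were compared. Ordered along the gene, the downstream probe gave the lower change in 4 of the 5 at 3 h and in 3 of the 5 at 24 h. Wars, Tars2 and Wars2 showed this at both times. Cars2 went the other way, its downstream probe giving 0.78 and -0.12 and its upstream probe 0.22 and -0.34. The 2 Iars2 probes gave -0.34 and -0.07 downstream and -0.30 and -0.26 upstream. The other Farsa probes, left out of this count, gave 0.15 and -0.34 downstream and 0.31 and -0.32 upstream. Transcript forms were not measured.

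**Figure D4:**
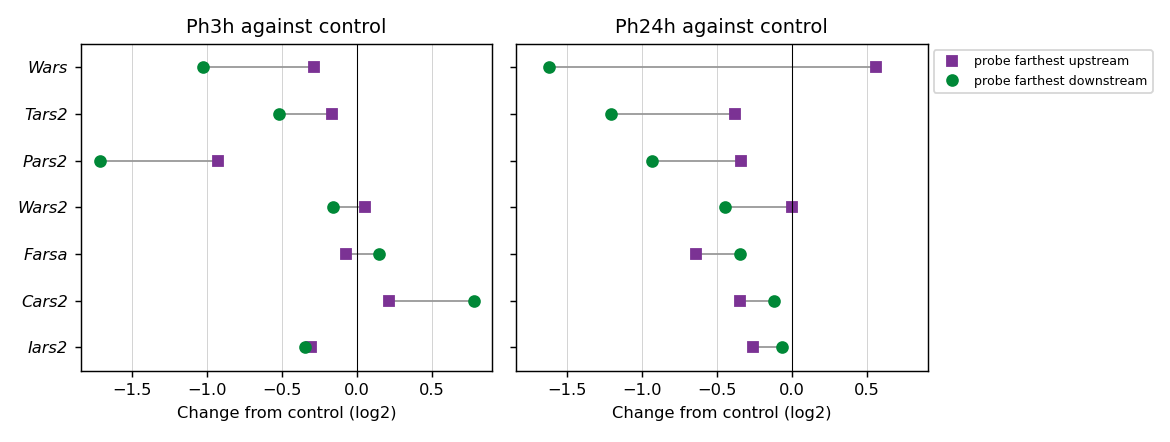
Log2 change from control at 3 h and 24 h for the probes farthest upstream and farthest downstream in the 7 members with more than 1 probe above the background filter, ordered by position on the genome, as fitted means of 3 arrays per group. The upstream probes of Pars2 and Farsa were not well above background on all fed arrays. The probes of Wars had opposite signs at 24 h, -1.62 and 0.56.

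Promoter sequence, which the choice of members did not use, was read from RefSeq for GRCm38.p6 as the 250 bases before and 50 bases after each transcription start. All 35 members matched a RefSeq gene, 34 by symbol and Mars by a synonym, and 26 had a promoter in the table, 13 cytosolic and 13 mitochondrial. Cars, Hars, Lars, Nars, Rars, Vars, Wars, Hars2 and Pars2 had none. The C/EBP-ATF element bound by ATF4 with its partners was searched as TGATGNAA on both strands. It was found in 5 of 13 cytosolic genes (38.5%) and 0 of 13 mitochondrial genes, against 4.51% of the 27025 genes and 3.97% of the 32851 promoters in the table. Of 25 ATF4 target genes with a promoter, 9 (36.0%) held it. Windows that hold it are shown, 1 per gene, in the direction of the gene with the element in capitals, because the cytosolic members that carry it can be compared with their changes above.
Aars, plus strand, chr8:111033840-111033869, 10 bases after the start: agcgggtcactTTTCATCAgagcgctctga
Gars, plus strand, chr6:55037960-55037989, 30 bases before the start: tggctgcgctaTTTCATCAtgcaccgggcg
Iars, plus strand, chr13:49682126-49682155, 8 bases after the start: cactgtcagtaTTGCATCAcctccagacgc
Tars, minus strand, chr15:11399655-11399684, 15 bases before the start: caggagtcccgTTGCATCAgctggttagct
Yars, plus strand, chr4:129189895-129189924, 4 bases after the start: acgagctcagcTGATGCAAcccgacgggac

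Of these 5 genes, Aars, Gars, Iars and Tars were called lower at both times, and Yars was not called unless Ph24h replicate 1 was left out. Among cytosolic genes whose promoter lacked the element, Dars, Mars and Sars were also called lower at both times. Eprs, Farsa, Farsb and Kars were called lower at 24 h only, and Qars at neither time. Of all 20 cytosolic members 12 were called lower at 3 h and 17 at 24 h, against 26.0% and 33.2% of all genes. A link between the element and the changes was not tested. The NRF1 motif, searched as GCATGCGC on both strands for a factor that drives many nuclear genes of mitochondrial proteins, was in 0 of 13 cytosolic and 2 of 13 mitochondrial genes, against 3.05% of all genes. Both mitochondrial windows are shown because the probes read for their genes moved in different ways, Rars2 up at both times and Wars2 down at 24 h. The second Wars2 probe gave 0.00 at 24 h, and under median scaling Rars2 was not called at 24 h.
Rars2, plus strand, chr4:34614895-34614924, 51 bases before the start: cggccccgtgtGCATGCGCactccacactt
Wars2, plus strand, chr3:99141015-99141044, 64 bases before the start: ccagaggacagGCGCATGCgtagtaagcac

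The interferon-stimulated element, searched as TTCNNTTTC on both strands, was in 1 of 13 cytosolic genes (Qars) and 0 of 13 mitochondrial genes, against 9.76% of all genes. Each match is a match of letters, and binding was not measured.

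Genes that work with the synthetases moved in the same direction for the most part. Of 19 tested partners of aminoacylation, 13 fell and 1 rose at 3 h, while 16 fell and 2 rose by 24 h, with medians of -0.42 and -0.69. Over all genes, 26.0% were called lower and 27.9% higher at 3 h, and 33.2% and 29.9% at 24 h. Xpot, which exports tRNA from the nucleus, had the largest change, at -1.19 and -1.74 (SE 0.0529, adjusted p = 2.5e-06 and 3.13e-07, limma). Changes past 1 log2 unit at 24 h were also seen in Dtd1, which removes D-amino acids from tRNA (-0.09, not called, and -1.32), and Gatc, a subunit of the mitochondrial amidotransferase (-0.93 and -1.05). Trnt1, which adds the CCA end to tRNA, changed by -0.57 and -0.42. Vars2, a mitochondrial synthetase placed in this list and not among the members, changed by -0.76 and -0.92, both called. The scaffold genes of the multisynthetase complex differed: Aimp1 changed by -0.20 (adjusted p = 0.0964, limma) and -0.75 (adjusted p = 0.000245), Aimp2 by -0.19 and 0.27, both called, and Eef1e1 by -0.08 and -0.10, neither called. Of 9 elongation factor genes, at 3 h 2 fell and 2 rose, and by 24 h 7 had fallen and 2 had risen. At 3 h 5 of the 9 were not called, while 53.8% of all genes were called. Eef1a1 and Eef1g were those that rose at both times, by 1.03 and 0.97 and by 1.57 and 1.36.

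**Figure D5:**
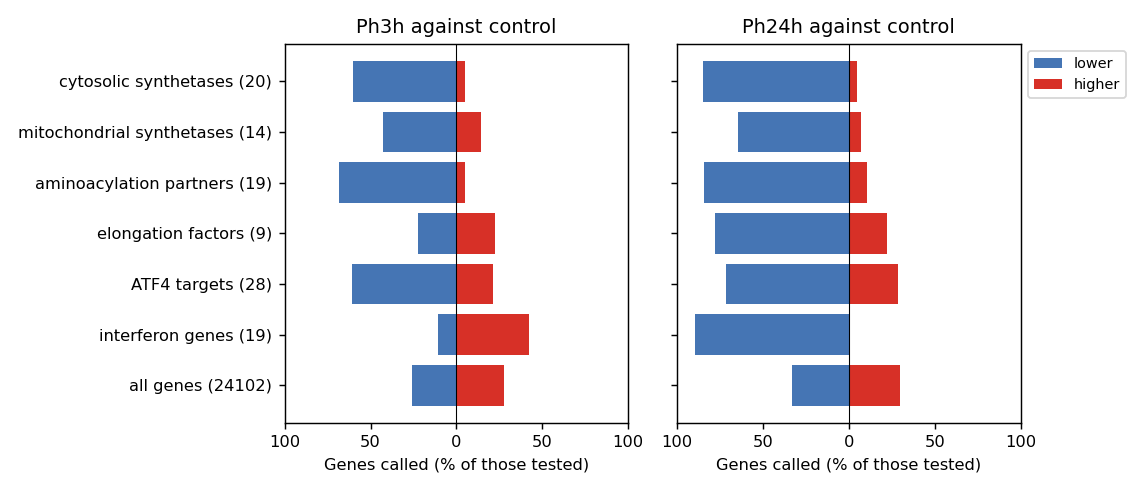
Share of tested genes called lower (bars to the left) and higher (bars to the right) against control, in percent, for Ph3h and Ph24h, by gene list and over all 24102 genes, with the number tested in parentheses. At 24 h 17 of 20 cytosolic and 9 of 14 mitochondrial synthetases were lower, against 33.2% of all genes.

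Of 28 ATF4 targets outside the synthetases, 17 fell and 6 rose at 3 h, while 20 fell and 8 rose by 24 h, with medians of -0.64 and -1.35. The shares of all genes were 26.0% lower and 27.9% higher at 3 h, and 33.2% and 29.9% at 24 h. Trib3, an inhibitor of the pathway, changed by -2.62 and -2.53, Chac1, which breaks down glutathione, by -1.92 and -2.60, and Phgdh, the first enzyme of serine synthesis, by -2.08 and -2.45. Ddit3, which encodes CHOP, changed by -2.14 and -2.28. Asns, asparagine synthetase, which makes the amino acid that Nars charges, changed by -1.77 and -2.23. Atf4 itself changed by -0.05 at 3 h (adjusted p = 0.637, limma) and -0.91 at 24 h (adjusted p = 6.96e-05). Amino acid transporters of the list split, Slc7a5 and Slc7a11 rising by 1.84 and 1.71 at 24 h and Slc7a1 falling by 2.49 on the log2 scale.

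Interferon genes, read because Wars responds to interferon, took another course. Of 19 tested, 8 rose, 2 fell and 9 were not called at 3 h, whereas 0 rose and 17 fell by 24 h, with medians of 0.37 and -1.65. Among all genes, 27.9% were called higher and 26.0% lower at 3 h, and 29.9% and 33.2% at 24 h. Wars was lower on its brighter probe at 3 h, when Cxcl10, an interferon-induced chemokine, was 2.09 higher on the log2 scale (adjusted p = 0.000104, limma) and Irf7, a factor of the interferon response, was 1.47 higher (adjusted p = 0.000333). The 2 called lower at 3 h, as Wars was, were Irf1 at -0.82 (adjusted p = 4.83e-05, limma) and Stat2 at -0.62 (adjusted p = 0.000211). At 24 h Ifit2, an antiviral protein, had a log2 change of -2.84 (adjusted p = 5.31e-05, limma). Ifi44 was not well above background on any Ph24h array, so its part in the 24 h median is only a bound.

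Several measures moved with the groups. For the counts below, 27.9% of all genes were called higher and 26.0% lower at 3 h, and 29.9% and 33.2% at 24 h. Markers of SH-SY5Y cells, the human cells that were fed, had 18 of 23 tested genes called higher at 3 h and 19 at 24 h, and their summed relative intensity was 4.47 to 5.26 for control, 1544 to 1676 for Ph3h and 2361 to 2721 for Ph24h arrays. The part of human RNA in the synthetase values was not tested. All 14 microglia markers were well above background in the control and Ph3h arrays, and all but P2ry12 in the Ph24h arrays, with sums of 1708 to 1794, 2177 to 2385 and 1516 to 1625. Of the 14, 7 rose and 3 fell at 3 h, and 3 rose and 8 fell by 24 h, when Cx3cr1 changed by -4.56, Trem2 by -1.43 and Csf1r by 0.36. Astrocyte markers, of which 1 of 7 tested was called higher at both times and 1 and 2 lower, summed to 15.0 to 19.3 in the controls and 16.5 to 18.8 and 17.3 to 17.6 in the fed groups, and Gfap was well above background on 1 array of each group. Oligodendrocyte markers, 4 of 10 called higher at both times and 3 and 4 lower, summed to 266 to 326, 420 to 478 and 211 to 245. Their part in the synthetase values was not tested. The 75th percentile of intensity, by which levels were divided, ranged over 355 to 472 for control, 185 to 211 for Ph3h and 156 to 161 for Ph24h arrays. Saturated spots numbered 0.

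Replicates 1 and 2 of each group were on 1 slide and replicate 3 on another. On slide 1 the cytosolic median was -0.59 at 3 h and -0.83 at 24 h and the mitochondrial median -0.37 and -0.45. On slide 2, with 1 array per group, the values were -0.53 and -0.98, and -0.46 and -0.44. Both slides thus gave negative medians for both sets, with the cytosolic set lower at both times.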

How the data were processed

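The members and gene lists were chosen with earlier results of these data known. RNA was primed with oligo dT, amplified, labeled with Cy3 and hybridized to 60-mer arrays. The authors deposited scanner files whose intensity values (Agilent Feature Extraction 10.7.3.1) are background-subtracted within an array and not normalized between arrays. Their GeneSpring GX table, deposited on a log2 scale with 36655 probes, served as an alternative. Its probes are centered on their mean over the arrays, its direction and scale follow the scanner values (slopes of 0.956 and 0.943 for the 3 h and 24 h changes, with r of 0.990 and 0.970, across 36625 probes). The sources used here do not give its array scaling. Column medians were 0.0944, 0.0890 and 0.0979 for control, 0.00591, 0.00194 and -0.00565 for Ph3h, and -0.0712, -0.0471 and -0.0545 for Ph24h.

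Here, spots flagged as outliers were left out, with 56 probes lost, spots of a probe were averaged, and log2 intensity minus the array's 75th percentile was taken. Probes clearing the background on 1 or more of 9 arrays were kept (34385), and the brightest probe on average stood for each gene. The 3 groups were fitted together with limma 3.58.1 in R 4.3.3 (lmFit, eBayes), and calls used a Benjamini-Hochberg adjusted p below 0.05. Scripts were tested on simulated data. Promoters and figures used Python 3.11.15 with pandas 2.3.3, numpy 2.4.6 and matplotlib 3.10.9. Genes given array by array were the 4 with the largest called change in each set and time, those against their set's direction, Wars, Kars, Gars, Hars and Hars2. Up to 4 genes with the largest called change were named from other lists. Qars, Yars, Aars2 and Mars2, and the further genes named from other lists, were added after their values were seen. Array groups came from the labels, and 3 arrays per group limit the precision. Alternatives covered scaling, background, filter, probe choice, slide, replicate block and leaving out each array. A few genes and a promoter window are not reported here.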

Additional observations from a re-analysis of the deposited data

Results flagged for a closer look

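For 24 members the change at 24 h differed from the change at 3 h when the difference itself was tested (Ph24h against Ph3h, limma, adjusted p below 0.05). Both changes use the same control arrays, which cancel in the difference. Over all genes 44.4% passed this test. Among the cytosolic members the log2 change at 24 h minus that at 3 h was -1.36 for Eprs, -0.93 for Vars, -0.81 for Farsb and for Nars, -0.7 for Lars and for Rars, -0.65 for Kars, -0.6 for Wars on its brighter probe, -0.5 for Farsa, -0.47 for Aars, -0.42 for Gars, -0.41 for Iars and -0.24 for Cars. In 8 of these 13 the 3 h change was itself called lower, and in Eprs, Farsa, Farsb, Kars and Rars it was not called. Among the mitochondrial members it was -0.9 for Cars2, -0.74 for Lars2, -0.69 for Tars2, -0.58 for Fars2, -0.55 for Sars2 and -0.32 for Ears2. It was positive, at 1.09 for Mars2, 0.78 for Pars2, 0.3 for Hars2, 0.26 for Yars2 and 0.2 for Aars2. The Cars difference was not called without control replicate 2, Ph3h replicate 1 or 2, or Ph24h replicate 1 or 3 (adjusted p = 0.0552 to 0.0943). That of Mars2 was not called without control replicate 2, any 1 Ph3h replicate, or Ph24h replicate 2 or 3 (adjusted p = 0.0515 to 0.0942). That of Ears2 was lost without Ph3h replicate 1 or 2 or any 1 Ph24h replicate (adjusted p = 0.0504 to 0.0793), and that of Yars2 without Ph3h replicate 1 or 2 or Ph24h replicate 1 or 2 (adjusted p = 0.0665 to 0.0744).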

How the results depend on the processing

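The cytosolic and mitochondrial medians were below 0 in all 3 comparisons under every alternative run, and the average of cytosolic minus mitochondrial members stayed between -0.45 and -0.42 at 24 h over the alternatives that kept all arrays or slide 1, against -0.44. Under median scaling the cytosolic medians were -0.80 at 3 h, -1.34 at 24 h and -0.71 for 24 h against 3 h, the mitochondrial medians -0.60, -0.96 and -0.37, 0 cytosolic and 0 mitochondrial members were higher at 24 h, and 1 mitochondrial member was higher at 24 h than at 3 h. It moves every gene of an array alike. It turned the 24 h against 3 h differences of Qars (-0.26), Yars2 (-0.0039) and Aars2 (-0.0638). Quantile normalization gave a cytosolic median of -0.61 at 3 h, and -0.33 with 2 higher for 24 h against 3 h. The authors' table gave -0.61, -0.33 and 2 for the same values and a mitochondrial median of -0.36 for 24 h against 3 h. With normexp the mitochondrial median at 24 h was -0.35, the cytosolic median for 24 h against 3 h -0.27 with 2 higher, and cytosolic minus mitochondrial at 3 h -0.19. Without a filter the mitochondrial median for 24 h against 3 h was -0.29. With all probes of a gene averaged the cytosolic median at 24 h was -0.75 and Wars for 24 h against 3 h was 0.12. With the second brightest probe 2 cytosolic and 1 mitochondrial members were higher at 3 h with a mitochondrial median of -0.23, 2 cytosolic members were higher at 24 h with medians of -0.75 and -0.36, 1 cytosolic member was higher for 24 h against 3 h, and Wars was 0.56 at 24 h and 0.84 for 24 h against 3 h, and Wars2 0.0024 at 24 h. Slide 1 alone gave a cytosolic median of -0.59 at 3 h and 2 mitochondrial members higher for 24 h against 3 h. That count was 3 when only those groups were fitted. With a trend in eBayes 2 cytosolic members were higher at 3 h. The cause of these moves was not tested beyond the construction of each setting.

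Leaving out 1 array at a time, the cytosolic median ranged from -0.62 to -0.53 at 3 h, -0.95 to -0.81 at 24 h and -0.47 to -0.41 for 24 h against 3 h. The mitochondrial median ranged from -0.45 to -0.29, -0.49 to -0.43 and -0.17 to -0.06. Mitochondrial members higher numbered 1 to 2 at 24 h (2 without Ph24h replicate 1) and 3 to 5 for 24 h against 3 h. Yars for 24 h against 3 h was -0.38 without Ph24h replicate 1.

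The replicate numbers did not pair the samples (correlation of deviations between arrays of the same number -0.0571 to 0.0413). With a replicate block 101 of 102 results for single members had the same call, and Cars for 24 h against 3 h was not called (log2 change -0.24, adjusted p = 0.0658). Calls over all genes were 12519, 14770 and 10062 with the block against 12977, 15201 and 10692. The slide as a block changed no member's call.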
